A study of Mus musculus with 18 samples.

Results

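The mitochondrial ribosome is built from proteins that the nucleus encodes, and 78 of its genes were described here across the edited and unedited cells. They were taken by name: every gene whose symbol is Mrpl or Mrps followed by a number and, in some, a letter, in any of the expression or acetylation tables, which together hold 29562 genes. By symbol 49 belong to the large subunit (Mrpl) and 29 to the small subunit (Mrps). In mammalian structures Mrps30 and Mrps18a sit in the large subunit, and Mrps36 is a part of the oxoglutarate dehydrogenase complex, so the counts by structure are 51 and 26.

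Mitochondria keep a small genome whose mRNAs encode core subunits of the respiratory chain, and only their own ribosomes translate it. These ribosomes pair 2 RNAs made in the mitochondrion (mt-Rnr1 and mt-Rnr2) with proteins that are translated in the cytosol and imported, some of them shared with bacterial ribosomes and some found only in mitochondria. Large and small subunit proteins are needed in fixed proportions, and proliferating cells, in which MYC drives many genes of ribosome and mitochondrion building, produce them in large amounts.

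The cells were TC1, a mouse line labelled as fibrosarcoma, and carried no edit (WT), a guide against Nat10 (sgNAT10) or a guide against Myc (sgMyc). NAT10 is the enzyme that acetylates cytidine in RNA. Messenger RNA was sequenced in 2 sets, each with WT libraries of its own: 2 WT and 2 sgNAT10 libraries, and 3 WT and 3 sgMyc libraries. Ribosome-protected fragments (Ribo-seq, footprints of translating ribosomes) were sequenced from 2 WT and 2 sgNAT10 libraries, and RNA pulled down with an antibody against acetylated cytidine (acRIP) from 1 WT and 1 sgNAT10 sample, each with its input. The labels give no age, passage, dose or time, and do not say whether an edited line is 1 clone, how the guide was delivered or whether libraries of a group are separate cultures. P-values therefore measure only the spread between these libraries, which may be technical.

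Depth was 13276646 to 17264178 reads per mRNA library of the sgNAT10 set, 1542261 to 3192728 footprints per Ribo-seq library and 51875052 to 65768024 reads per library of the sgMyc set. Nat10 mRNA was 5.36 and 5.30 FPKM (fragments per kilobase of gene, scaled to the mapped fragments of the library) in WT and 3.59 and 3.95 in sgNAT10. Myc mRNA was 64.8, 61.6 and 70.8 FPKM in WT and 21.1, 20.9 and 34.1 in sgMyc, and it was also lower in sgNAT10, at 39.98 and 40.9 against 115 and 117. The summed FPKM of 7 fibroblast markers was 22.1 and 22.8 in WT and 97.3 and 96.4 in sgNAT10, and 120 to 139 in WT and 453, 454 and 178 in sgMyc. That of 3 macrophage markers was 5.49 and 5.996 FPKM in WT and 13.7 and 12.2 in sgNAT10. In the sgMyc set 5 macrophage markers summed to 12.3, 11.8 and 11.2 FPKM in WT and 29.3, 27.4 and 15.9 in sgMyc. In the sgNAT10 set the fibroblast markers went both ways, 3 higher and 2 lower of 5 tested, and in the sgMyc set 3 of 7 were higher and none lower with all libraries, 6 higher without sgMyc replicate 3. The part of these differences in the results below was not tested. T cell markers of the sgNAT10 set were not analysed here, the 2 analysed in the sgMyc set summed to at most 0.033 FPKM, and endothelial and epithelial markers summed to under 1 FPKM in every mRNA library. In bulk RNA, fewer cells of a type and less RNA per cell cannot be told apart. sgMyc replicate 3 stood apart from the other 2 sgMyc libraries, and sgMyc counts are given with and without it.

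RefSeq (GRCm38.p6) holds 75 promoters for 69 of the 78 genes, each 250 bases before to 50 after a start. The motifs searched, on both strands, were CACGTG, the E-box bound by MYC and MAX, TGCGCA, the core of the NRF1 motif, CCGGAAG, the core bound by ETS factors such as GABPA, and ATGGCGGC, a YY1-type motif. NRF1 and GABPA are classical regulators of nuclear genes for mitochondria. The NRF1 core was in 29.3% of the mitoribosomal promoters against 7.76% of all 32851 promoters, the ETS core in 34.7% against 8.86%, the YY1-type motif in 16% against 2.24%, and the E-box in 9.33% against 7.15%. Median GC content was 58.7% in these promoters and 52.7% in all, and its part in the shares was not tested. The E-box was thus the motif whose share was closest to that of all promoters, and it was found in 5 of the 69 genes. The 30 bases around each of these E-boxes are printed because Myc was one of the edited genes. They lie before the start and read 5′ to 3′ on the gene's strand, with the motif in capitals.
Mrpl2 (chr17:46646078-46646107, + strand): actgccgcccgtCACGTGacccgagcaacc
Mrpl20 (chr4:155802833-155802862, + strand): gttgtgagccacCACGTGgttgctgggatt
Mrpl36 (chr13:73330954-73330983, + strand): cacacgtcatccCACGTGaccttacgccat
Mrpl37 (chr4:107067011-107067040, - strand): agcaagtttcttCACGTGtggcacttcaga
Mrps18c (chr5:100798584-100798613, + strand): gcagccccgggtCACGTGacttccggcccg
The NRF1 core is shown in Mrpl10 and Mrpl11, stalk genes whose mRNA was lower in sgNAT10. Mrpl1 and Mrpl12, also stalk genes with lower mRNA, had none of the motifs, and Mrpl54 had no promoter among those searched.
Mrpl10 (chr11:97041439-97041468, + strand): cagctccacgcaTGCGCAtagcggccctat
Mrpl11 (chr19:4962124-4962153, + strand): aggtgatgcctgTGCGCAccgctgagggat
Among genes whose mRNA was lower in sgNAT10, 28 had a promoter in the table. Of these 2 had the E-box, 11 the NRF1 core, 8 the ETS core and 6 the YY1-type motif. Of 10 higher genes 1, 4, 7 and 2 had them, and of 30 genes without a call 2, 6, 10 and 3. The differences between these groups were not tested. A match is a run of letters, not a bound site.

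In WT cells the mitoribosomal mRNAs spanned a range of FPKM from 3.05 (Mrps35) to 60.8 (Mrpl12), with a median of 13.9 over 77 genes. Mrpl53 had a value only in the sgMyc set. Large subunit genes had a median of 16.1 FPKM and small subunit genes 10.01. The 5 highest of the large subunit were Mrpl12, Mrpl28, Mrpl54, Mrpl18 and Mrpl10, and the highest of the small subunit were Mrps6 and Mrps21. Footprint levels ranged from 1.54 FPKM (Mrpl23) to 224 (Mrps21). The ratio of footprint FPKM to mRNA FPKM in WT, a relative measure on these scales, had a median of 1.51 and ran from 0.307 (Mrps2) to 6.86 (Mrps28). Across the 77 genes, log2 WT levels of the 2 mRNA sets had a Pearson r of 0.87 and a Spearman rho of 0.86, and mRNA and footprint levels 0.75 and 0.75. These are correlations across genes, which share libraries and gene lengths and are not replicates.

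The first comparison asked how mitoribosomal mRNAs differed between sgNAT10 and WT cells. Of 77 genes tested, 31 were lower and 11 higher in sgNAT10 at an adjusted p under 0.05 (limma on log2(FPKM + 1), Benjamini-Hochberg over 11735 genes), and 35 did not pass. The background is high, since 63.3% of all genes tested were called, 29.6% lower and 33.7% higher. The mitoribosomal genes were thus called about as often as genes in general, and their split was toward lower, 40.3% against 14.3% higher. Their median log2 fold change was -0.10, against 0.01 over all genes tested. The split of all genes turned with the scaling, from 3960 higher and 3471 lower to 3405 and 4104 with median scaling. In that setting 34 mitoribosomal genes were lower and 8 higher. Changes were small: 9 genes were lower and 2 higher by at least 0.5 on the log2(FPKM + 1) scale, and none by 1. The shares of all genes past these sizes are not given here. The genotypes did not overlap in 74% of the mitoribosomal genes and in 82.3% of all genes tested.

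**Figure D1:**
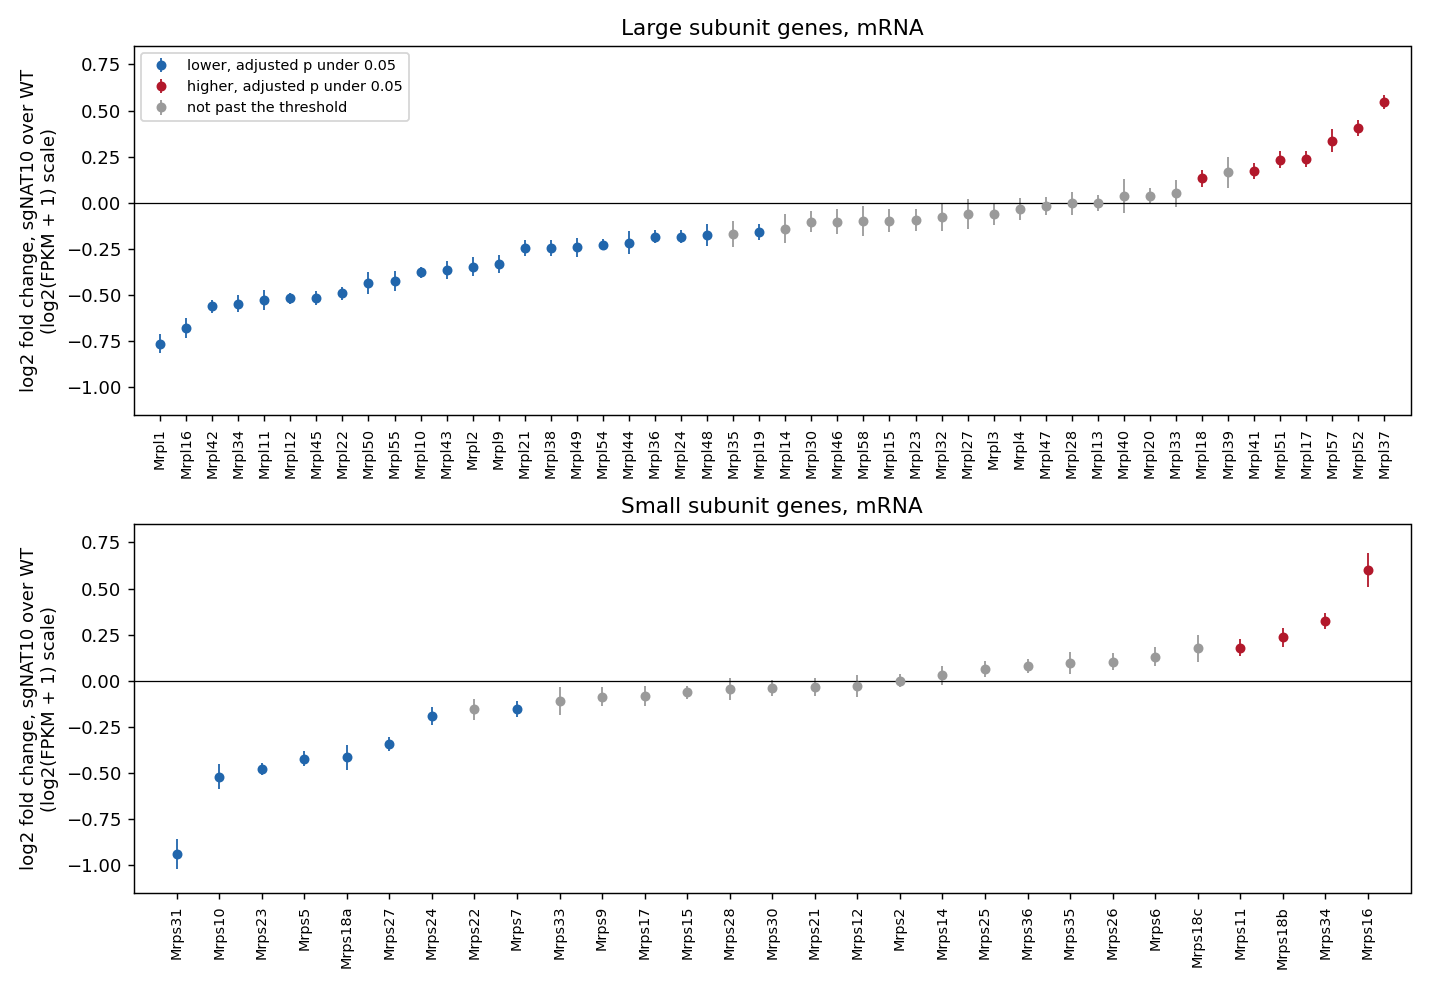
Log2 fold change of mRNA, sgNAT10 over WT, for 48 large subunit genes (top) and 29 small subunit genes (bottom), ordered by value; points are limma estimates from 2 against 2 libraries and bars their standard errors. Values run from -0.94 (Mrps31) to 0.60 (Mrps16), and 23 large subunit and 8 small subunit genes were called lower.

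The subunits differed in count. In the large subunit 23 of 48 genes were lower (47.9%) and 7 higher (14.6%), with a median log2 fold change of -0.15. In the small subunit 8 of 29 were lower (27.6%) and 4 higher (13.8%), with a median of -0.04. Among all genes tested 29.6% were lower and 33.7% higher, so the lower share of the small subunit was near that of genes in general. By structure the counts were 24 and 7 of 50 and 7 and 4 of 26. The difference between the subunits was not tested. Of the large subunit genes, 13 of 29 shared with bacteria were lower (44.8%) and 10 of 19 mitochondria-specific ones (52.6%). In the small subunit the counts were 4 of 16 (25%) and 3 of 10 (30%), near the share of all genes.

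Of the role groups listed, the stalk was the one in which every gene measured was lower, 5 of 5, beside 29.6% of all genes tested. Mrpl53, the other stalk gene, had no value in this set. The groups were listed with earlier results of these data known. The stalks are mobile arms of the large subunit that handle translation factors and the outgoing tRNA. Mrpl12, the L7/L12-type factor-binding protein, was 61.3 and 60.3 FPKM in WT and 42.1 and 42.2 in sgNAT10. Its log2 fold change was -0.52 (SE 0.0285, limma adjusted p = 0.000103). Mrpl1, the protein of the other stalk, was 6.73 and 6.85 FPKM in WT and 3.68 and 3.51 in sgNAT10, with a log2 fold change of -0.76 (SE 0.0498, limma adjusted p = 0.000175). Both sgNAT10 libraries were below both WT libraries in each of these genes. Mrpl10, which anchors Mrpl12, was 34.9 and 34.6 FPKM in WT and 26.5 and 26.6 in sgNAT10. Mrpl11, at the stalk base, was 12.3 and 12.2 in WT and 8.58 and 7.83 in sgNAT10, and Mrpl54 was 39.3 and 39.9 against 33.3 and 34.2. All 3 were lower, with limma adjusted p from 0.000334 to 0.0025, and the median log2 fold change of the 5 genes was -0.52.

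**Figure D2:**
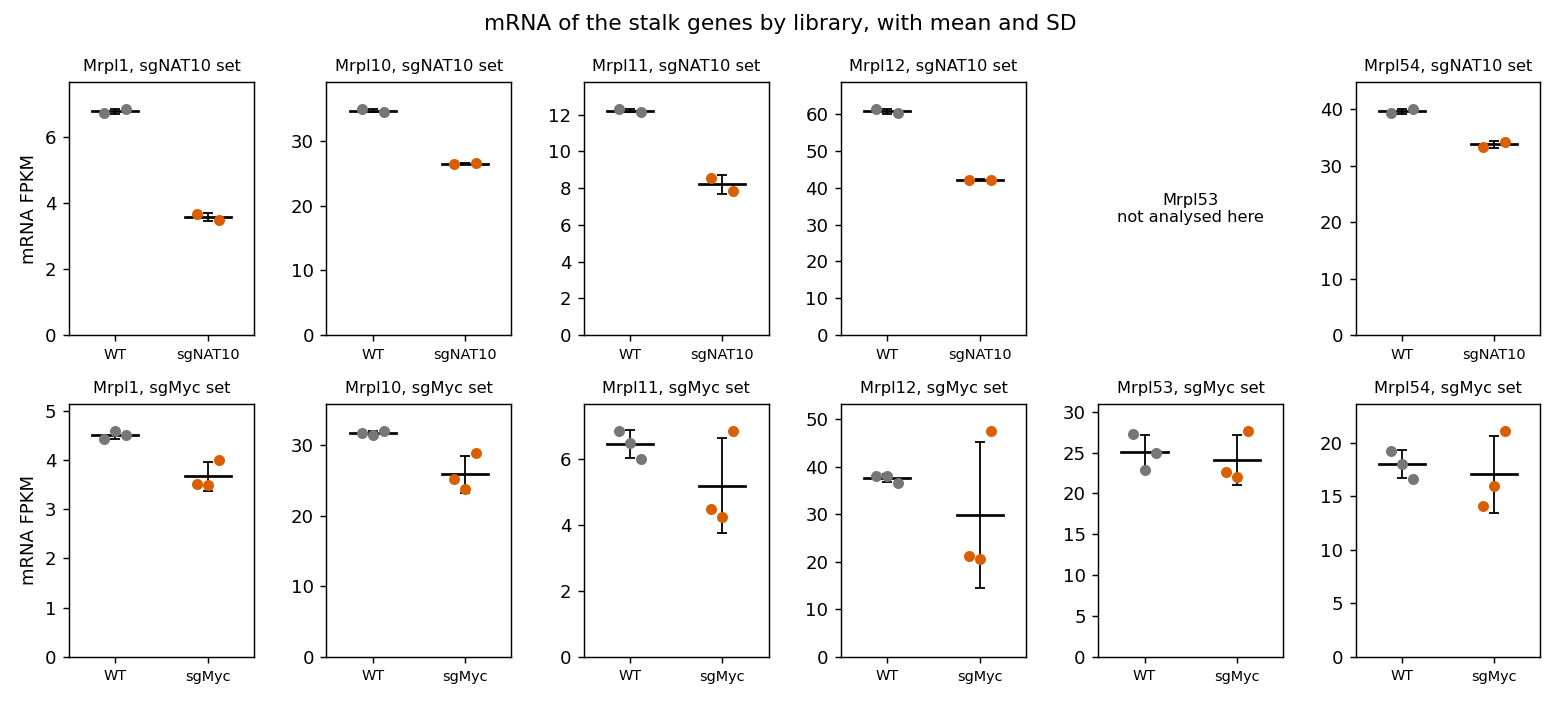
FPKM of the stalk genes in each mRNA library of the sgNAT10 set (top, 2 WT and 2 sgNAT10) and the sgMyc set (bottom, 3 WT and 3 sgMyc); points are libraries, lines means and bars SD. Both sgNAT10 libraries lie below both WT libraries in all 5 genes of the top row, and in the bottom row sgMyc replicate 3 is the highest sgMyc library in every gene.

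Around the exit tunnel, through which the new protein leaves, 4 of 8 genes were lower (50%) and 1 higher (12.5%), beside 29.6% and 33.7% of all genes tested. Mrpl45, which holds the ribosome to the inner membrane, was 29.5 and 29.8 FPKM in WT and 20.99 and 19.98 in sgNAT10 (log2 fold change -0.51, SE 0.0378, limma adjusted p = 0.000252). Mrpl22, a tunnel-wall protein, was 23.3 and 23.6 FPKM in WT and 16.7 and 16.2 in sgNAT10. Mrpl24 and Mrpl44 were lower by less, with log2 fold changes of -0.18 and -0.22. Mrpl17 was the higher one, at 7.45 and 7.20 FPKM in WT and 8.84 and 8.79 in sgNAT10. In the central protuberance, the crown of the large subunit, Mrpl38 and Mrpl48 were lower, Mrpl18 was higher with a log2 fold change of 0.13, and Mrpl40 and Mrpl46 did not pass.

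Outside these groups the lowest large subunit gene was Mrpl16, a protein near the catalytic centre, at 28.8 and 29.7 FPKM in WT and 18.9 and 17.0 in sgNAT10. Mrpl42 was 23.7 and 22.9 FPKM in WT and 15.5 in both sgNAT10 libraries. Mrpl34 was 33.9 and 32.6 FPKM in WT and 21.7 and 23.2 in sgNAT10. Their log2 fold changes were -0.68 (SE 0.056), -0.56 (SE 0.0363) and -0.55 (SE 0.0453), all past the threshold. Of the higher genes Mrpl37, a mitochondria-specific protein, was 15.2 FPKM in both WT libraries and 22.2 and 23.1 in sgNAT10, a log2 fold change of 0.55 (SE 0.0372, limma adjusted p = 0.000201). Mrpl52 was 17.6 and 16.5 FPKM in WT and 22.6 and 23.2 in sgNAT10. Mrpl57 and Mrpl51 followed, with log2 fold changes of 0.34 and 0.23. Mrpl37 overlaps Cyb5rl and Mrpl57 overlaps Ska3 in RefSeq, as 25 of the 78 genes overlap another gene, and whether reads were counted by strand is not given in the sources used here.

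The small subunit held both extremes. Mrps31, a mitochondria-specific protein, was 7.49 and 6.75 FPKM in WT and 3.49 and 2.99 in sgNAT10, a log2 fold change of -0.94 (SE 0.0818, limma adjusted p = 0.000442). Mrps16, a protein shared with bacteria, was 8.21 and 7.12 FPKM in WT and 12.999 and 11.3 in sgNAT10, a log2 fold change of 0.60 (SE 0.0906, limma adjusted p = 0.0031). In both genes the genotypes were separate. Among the 11 genes of the decoding region, head and body that were listed as a group, 3 were lower and 2 higher. These are 27.3% and 18.2%, beside 29.6% and 33.7% of all genes tested, so the lower share was near that of genes in general. Mrps5 was 10.3 FPKM in both WT libraries and 7.38 and 7.47 in sgNAT10, whereas Mrps12, which lines the decoding site, was 15.7 and 17.6 against 16.0 and 16.6. The 10 mitochondria-specific genes had 3 lower (30%) and 2 higher (20%), the lower share again near that of all genes. Mrps31, Mrps23 and Mrps27 were lower, and Mrps34 and Mrps18b higher. Mrps23 was 22.9 FPKM in both WT libraries and 16.2 and 16.1 in sgNAT10. Mrps10 was 6.67 and 6.44 FPKM in WT and 4.57 and 3.99 in sgNAT10, and Mrps18a, of the large subunit by structure, 6.85 and 7.76 against 5.17 and 5.27. The libraries of a genotype lay close together: only 0.763% of genes in WT and 1.42% in sgNAT10 differed between the 2 libraries past a limit at which counting noise alone gives 0.1%.

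In the authors' deposited table for this comparison, 25 of the 77 genes were lower (32.5%) and 8 higher (10.4%) at an adjusted p under 0.05, beside 21.7% lower and 22.6% higher among its 17379 genes. Each of these mitoribosomal genes had the same call here.

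The second comparison asked how ribosome footprints on these mRNAs differed. For footprints, 1 of 77 genes was lower and 0 higher in sgNAT10 (limma on log2(FPKM + 1)), beside a background of 3.09% called in 9707 genes (1.28% lower and 1.81% higher). At an unadjusted p under 0.05 there were 11 genes, 5 of them lower, beside 20.7% of all genes tested. On whole reads recovered from the FPKM values, edgeR called 2 lower and 0 higher, beside 3.78% lower and 3.89% higher of all genes. The median log2 fold change was -0.06 (large subunit -0.12, small subunit 0.03), against -0.00 over all genes. Of the 31 genes with lower mRNA, 23 had a negative footprint log2 fold change, and of the 11 with higher mRNA, 8 had a positive one. Whatever the call, 53 of the 77 genes had the same sign in both. These shares over all genes are not given here, so they are not read as a trait of the mitoribosomal genes. Across the 77 genes, mRNA and footprint log2 fold changes had a Pearson r of 0.59 and a Spearman rho of 0.55.

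**Figure D3:**
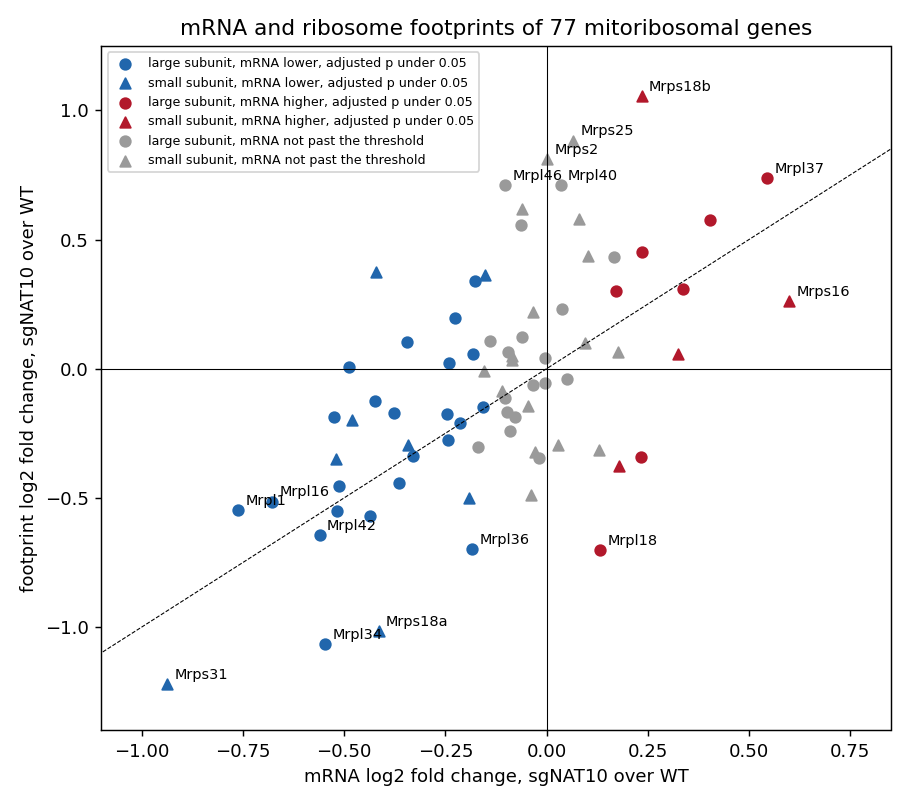
Log2 fold change of mRNA (x axis) and of ribosome footprints (y axis), sgNAT10 over WT, for 77 genes, circles for the large and triangles for the small subunit, colours for the mRNA call; the dashed line marks equal values. Mrps31 lies lowest on both axes, at -0.94 and -1.22, and Mrps18b has the highest footprint value, 1.06.

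Mrpl34, whose mRNA was lower too, was the called gene. Its footprints were 150.5 and 164 FPKM in WT and 70.1 and 79.2 in sgNAT10, a log2 fold change of -1.07 (SE 0.15, limma adjusted p = 0.0248). With 1 of the 4 libraries left out it was not called, but those fits called 0 to 9 genes in all, so they say little of this gene. Mrps31 had 30.8 and 31.97 FPKM in WT and 14.3 and 11.6 in sgNAT10, a log2 fold change of -1.22 (SE 0.226, limma adjusted p = 0.0538). Its genotypes did not overlap, and it passed with edgeR (adjusted p = 0.0207) and with a minimum mean of 5 FPKM (limma adjusted p = 0.0357). In the other direction Mrps18b had 14.6 and 17.6 FPKM in WT and 30.4 and 38.8 in sgNAT10 (log2 fold change 1.06, SE 0.237, limma adjusted p = 0.0825). Mrpl40, of the central protuberance, had 39.97 and 47.8 against 74.3 and 70.2 (0.71, SE 0.176), Mrpl52 86.9 and 102 against 135 and 147 (0.58, SE 0.154), and Mrps15 51.7 and 41.0 against 72.0 and 70.5 (0.62, SE 0.185). None of these 4 passed. The genotypes did not overlap in them, as in 37.7% of the mitoribosomal genes and 51.1% of all genes tested. The stalk genes had footprint log2 fold changes from -0.55 to 0.20, a median of -0.19 and no call. Mrpl12 had 65.2 and 108 FPKM in WT against 50.3 and 64.3, so that WT replicate 1 lay next to sgNAT10 replicate 2. Ribo-seq libraries of a genotype spread more than mRNA libraries, with 34.6% of genes in WT and 21.7% in sgNAT10 past the same limit. The authors' deposited Ribo-seq table lists 3 of these genes lower and 3 higher (3.9% each), beside 7.65% lower and 7.45% higher of its 10974 genes.

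Translational efficiency, footprints relative to mRNA, was tested as a genotype by assay term over the 8 libraries. No mitoribosomal gene passed (limma), beside a background of 0.261% of 9200 genes (0.109% lower and 0.152% higher). At an unadjusted p under 0.05 there were 9 of 77, near the share of all genes, 11.9%. The median log2 difference was 0.06, against -0.02 over all genes. The lowest p-values belonged to Mrpl46 (0.81, SE 0.2, limma adjusted p = 0.188), Mrps15 (0.68, SE 0.169), Mrpl34 (-0.52, SE 0.134) and Mrps18b (0.82, SE 0.219). Calls depended on single footprint libraries: 3 genes were higher without Ribo-seq WT replicate 1, 6 higher and 3 lower without Ribo-seq WT replicate 2, and 1 lower without Ribo-seq sgNAT10 replicate 2. Calls over all genes moved in the same fits, to 3.15% higher and 1.99% lower, 4.09% and 2.87%, and 0.536% and 0.908%. For Mrps15 the difference was 0.84 without Ribo-seq WT replicate 1 and 0.52 without Ribo-seq WT replicate 2. Each of these fits leaves 1 WT footprint library, whose spread cannot be measured. The model gives both assays 1 variance per gene, although footprint libraries spread more, so its standard errors may be too small. That of Mrps15 was 0.169 here and 0.185 for footprints alone.

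The third comparison asked how the same genes differed between sgMyc and WT cells. With all 6 libraries 1 of 78 genes was lower and 0 higher (edgeR quasi-likelihood test, Benjamini-Hochberg over 16794 genes), beside a background of 16% called (8.86% lower and 7.11% higher). At an unadjusted p under 0.05 there were 8 of 78 genes, beside 31% of all genes tested. DESeq2 called 1 lower and 1 higher (Mrpl37), beside 5.89% lower and 7.21% higher of 28738 genes. The called gene was Mrpl50, a mitochondria-specific protein of the large subunit. It was 16.9, 16.5 and 16.6 FPKM in WT and 8.85, 7.35 and 11.01 in sgMyc, a log2 fold change of -0.88 (SE 0.162, edgeR adjusted p = 0.0173). Its sgMyc libraries were all below its WT libraries, but the call was lost without any 1 WT library or without sgMyc replicate 1. Those fits called fewer genes in all, 493 to 802 lower and 187 to 423 higher, against 1488 and 1194 with all libraries. The lost call is therefore not read as a trait of Mrpl50. The median log2 fold change of the 78 genes was -0.06, against -0.03 over all genes.

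This result turned on 1 library. The median FPKM of the 78 genes was 13.2, 13.4 and 13.5 in WT, 10.99 and 10.9 in sgMyc replicates 1 and 2, and 16.2 in sgMyc replicate 3. Replicates 1 and 2 were below every WT library in 65 and 59 genes and above every WT library in 7 and 6, whereas replicate 3 was above every WT library in 55 genes and below in 9. Among all genes tested, replicates 1 and 2 were below every WT library in 43.8% and 44% and above in 37.5% and 37.8%, and replicate 3 below in 42.3% and above in 35.7%. Replicate 3 exceeded both other sgMyc libraries in 74 of the 78 genes (94.9%), beside 40.7% of all genes. It stood apart across the transcriptome: 61.6% and 61.7% of genes differed between it and the other sgMyc libraries past the counting limit given above, and 13% between those 2. The 78 genes took 0.277%, 0.284% and 0.278% of reads in WT, 0.238% and 0.239% in sgMyc replicates 1 and 2, and 0.330% in replicate 3. That library also had more Myc (34.1 FPKM) and Nat10 (6.27, against 3.52 and 3.31) than the other sgMyc libraries, and fewer fibroblast marker transcripts (178 FPKM in sum, against 453 and 454). Its part in the low number of calls was measured by leaving it out.

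**Figure D4:**
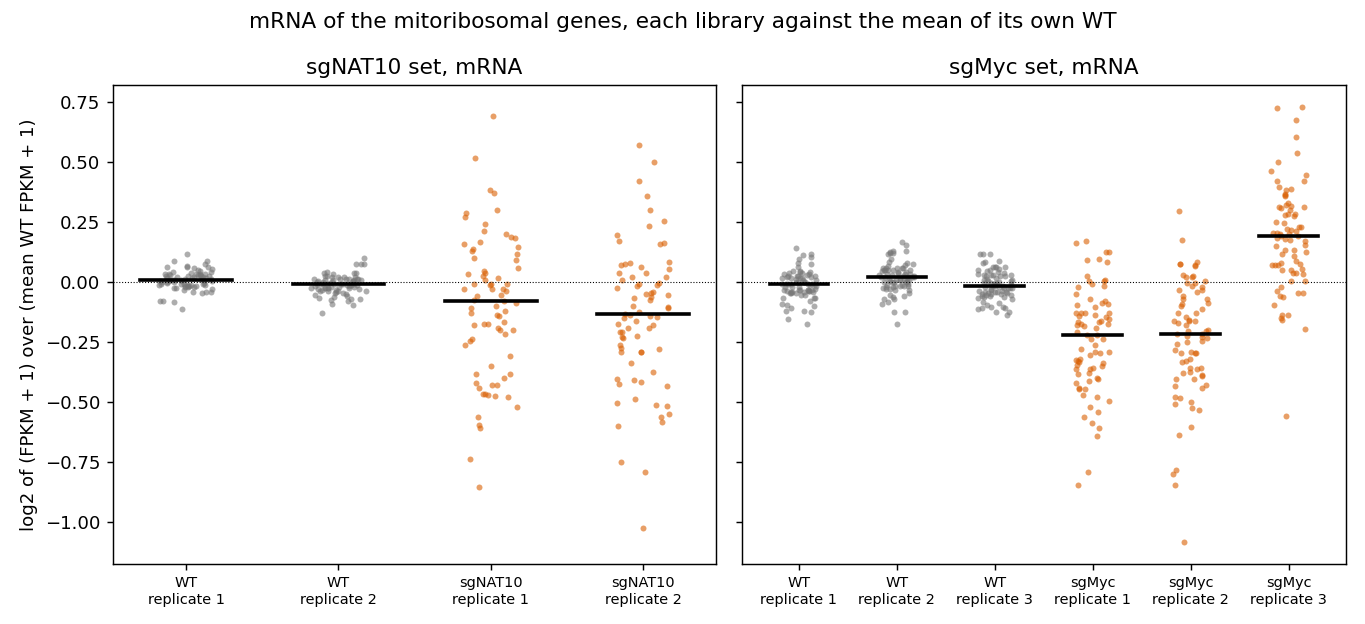
Each point is 1 mitoribosomal gene in 1 mRNA library, as log2 of (FPKM + 1) over (mean WT FPKM + 1) of its own set, with the median as a bar; 77 genes in the sgNAT10 set (left) and 78 in the sgMyc set (right). The medians of sgMyc replicates 1 and 2 lie at -0.22 and that of sgMyc replicate 3 at 0.19.

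Without sgMyc replicate 3, 39 of 78 genes were lower and 3 higher (edgeR, 2 against 3 libraries), beside a background of 53.6% called, 26.9% lower and 26.6% higher. The median log2 fold change was -0.22, against -0.01 over all genes. In the large subunit 26 of 49 genes were lower and in the small subunit 13 of 29. Mrpl50 was lower by the most, with a log2 fold change of -1.01 (SE 0.0855, edgeR adjusted p = 1.07e-05). Mrpl12 was 38.0, 38.2 and 36.7 FPKM in WT, 21.3 and 20.5 in sgMyc replicates 1 and 2 and 47.5 in replicate 3, the widest departure among the stalk genes. Its log2 fold change was -0.33 with all libraries (SE 0.341, edgeR adjusted p = 0.575) and -0.81 without replicate 3 (SE 0.0487, edgeR adjusted p = 1.08e-06). Mrpl16 was 5.30, 5.24 and 5.12 FPKM in WT and 3.22, 2.58 and 5.25 in sgMyc, so that only replicate 3 reached WT. Mrpl1, like Mrpl50 and Mrpl10, kept all 3 sgMyc libraries below WT, at 4.43, 4.58 and 4.496 FPKM in WT and 3.50, 3.48 and 4.0002 in sgMyc. Of the 6 stalk genes 4 were lower without replicate 3 (Mrpl1, Mrpl10, Mrpl11 and Mrpl12), and all 6 had a negative log2 fold change with or without it. The 3 higher genes were Mrpl37, Mrps9 and Mrps30. Mrpl37 was 15.4, 15.6 and 14.4 FPKM in WT and 17.2, 18.8 and 25.8 in sgMyc, above WT in every sgMyc library.

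The edits were then compared gene by gene. Of the 31 genes lower in sgNAT10 mRNA, 22 were lower in sgMyc without replicate 3 and none higher, which is 71.0% of the first list and 56.4% of the second. Among all genes lower in sgNAT10 and tested in both sets, 56.4% were lower in sgMyc without replicate 3 and 13.8% higher. Of the mitoribosomal genes tested in both, 50.6% were lower in sgMyc without replicate 3 whatever their sgNAT10 call, beside 33.5% of all genes. Of the 11 higher in sgNAT10, 5 were lower in sgMyc without replicate 3 and 1, Mrpl37, was higher, beside 19.1% lower and 50.5% higher of all genes higher in sgNAT10. The 5 genes called in opposite directions were Mrpl17, Mrpl18, Mrpl41, Mrpl52 and Mrpl57, all of the large subunit. Mrpl18, of the central protuberance, was 39.4 and 38.6 FPKM in WT and 44.4 and 41.3 in sgNAT10, and 40.01, 42.8 and 40.4 in WT and 29.9, 29.2 and 47.1 in sgMyc. Mrpl52 was 13.2, 13.2 and 14.6 FPKM in WT of the sgMyc set and 11.6, 10.7 and 16.2 in sgMyc. In both genes sgMyc replicate 3 was above every WT library and the other sgMyc libraries below. Over 77 genes the log2 fold changes of both edits had a Pearson r of 0.60 and a Spearman rho of 0.54 with all libraries, and 0.49 and 0.44 without replicate 3. The sets have separate WT libraries, so these values share no control. Whether the edited lines share an origin that the WT cells lack is not given in the sources used here. The part of such an origin in the shared calls was not tested, and it cannot be told apart from shared effects of the edits. The difference itself, sgMyc minus sgNAT10 effect, was tested as a genotype by set term in limma over 10 libraries. It was higher in 2 of 77 genes and lower in none, with 12 at an unadjusted p under 0.05, beside a background of 21% of 10265 genes (6.78% or 696 higher, 14.2% or 1457 lower). After quantile normalization that split was 992 higher and 1229 lower, and 5 of the mitoribosomal genes were higher. Mrpl1 differed by 0.52 (SE 0.0894, limma adjusted p = 0.00488) and Mrps31 by 0.67 (SE 0.13, limma adjusted p = 0.00843), both being lower in sgNAT10 by more than in sgMyc. Mrps31 was 6.80, 7.74 and 6.60 FPKM in WT of the sgMyc set and 5.82, 5.20 and 6.02 in sgMyc. Without sgMyc replicate 3 the difference was higher in 9 genes and lower in 26, beside 23.2% higher and 36.4% lower of all genes.

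Acetylated-cytidine peaks were described without a test, since each genotype had 1 precipitate and 1 input. The authors' deposited table lists 1358 peaks in 1066 genes. Of the mitoribosomal genes 7 had 1 peak each, 9.09% of the 77 genes with mRNA values, against 8.07% of all 11735 genes tested for mRNA. The authors' fold enrichment over input had a median of 2.23 in these peaks and 1.77 in all. It was 4.69 for Mrps10 (an exon on chr17:47369515-47369635, mm10), 3.61 for Mrps23 (coding sequence, chr11:88204688-88205283), 3.07 for Mrpl38 (coding sequence, chr11:116138448-116138688) and 2.23 for Mrps26 (coding sequence, chr2:130563802-130564250). Mrpl15, Mrpl20 and Mrpl52 had 1.71, 1.59 and 1.24. Of the 7 peaks, 4 passed an FDR of 0.01 as given by the authors: those of Mrpl15, Mrpl38, Mrps26 and Mrps23. Among all 1358 peaks 1005 passed it. The Mrps10 peak, with the highest enrichment, did not. The single position that the table gives for each peak lay within the first 13.7% of the gene's length in 6 of the genes, and at 64.0% in Mrps23. The positions of all peaks are not given here.

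The table also gives a log2 difference between genotypes. Which genotype is the numerator is not given in the sources used here, so no direction is read from it. It was -3.96 for Mrps10, -1.65 for Mrps23, -1.18 for Mrps26, -0.18 for Mrpl38, 0.12 for Mrpl15, 0.87 for Mrpl20 and 1.43 for Mrpl52. The sign differed among the 7, 4 below and 3 above 0, beside 586 below and 772 above 0 of all 1358 peaks. Side by side with mRNA, Mrps10, Mrps23 and Mrpl38 were lower in sgNAT10 and Mrpl52 was higher, and the other 3 did not pass. No footprint call fell on a gene with a peak.

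The other genes of mitochondrial translation were read from lists of their own. All genes tested in sgNAT10 mRNA, for reference, were 29.6% lower and 33.7% higher. Of 6 mitoribosome proteins with other names, Dap3 and Gadd45gip1 were lower in sgNAT10 mRNA and Aurkaip1 higher. Initiation, elongation, termination and recycling factors were lower in 7 of 11 (63.6%) and higher in none (median log2 fold change -0.32). Of these Tufm, the elongation factor that brings charged tRNA, was 45.1 and 44.9 FPKM in WT and 31.2 and 31.7 in sgNAT10. Genes of mitochondrial transcription and mRNA stability were lower in 5 of 7 (71.4%) and higher in none. Lrpprc, which stabilises mitochondrial mRNAs, was 16.5 FPKM in both WT libraries and 7.96 and 7.46 in sgNAT10, and its footprints were 69.2 and 56.4 against 25.9 and 24.7, past the threshold in both (limma adjusted p = 5.7e-05 and 0.0298). Mitochondrial tRNA synthetases were lower in 7 of 17 (41.2%) and higher in none. Cytosolic ribosomal proteins were lower in 55 of 82 and higher in 5, with a median of -0.22, a lower share of 67.1% beside 40.3% in the mitochondrial ribosome, a difference that was not tested. In sgMyc the cytosolic genes were lower in 8 of 84 and higher in 1 with all libraries, and lower in 59 and higher in 3 without replicate 3. Over all genes tested the shares were 8.86% lower and 7.11% higher, and 26.9% and 26.6% without replicate 3.

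Assembly factors and rRNA modifiers were lower in 10 of 28 (35.7%) and higher in 2 (7.14%) in sgNAT10 mRNA, beside 29.6% and 33.7% of all genes tested. Of these factors 1 had almost no reads in the edited cells. Rbfa, which binds the small subunit during its maturation, was 4.54 and 4.75 FPKM in WT and 0.042 and 0.045 in sgNAT10 mRNA, or 137 and 120 reads against 1 in each library. Its footprints were 18.7 and 11.6 FPKM in WT and 0.203 and 0 in sgNAT10. In the sgMyc set it was 2.55, 2.86 and 2.98 FPKM in WT and 0.036, 0 and 0 in sgMyc, or 234, 242 and 272 reads against 4, 0 and 0. It was called lower in all 3 comparisons (limma adjusted p = 2.21e-05 and 0.0138, edgeR adjusted p = 0.00263), and here sgMyc replicate 3 did not differ from the other sgMyc libraries. The mitoribosomal genes had no member with a change of this size in either edit.

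The RNAs that these ribosomes translate were measured in the same libraries. Mitochondrially encoded mRNAs were lower in 7 of 13 (53.8%) in sgNAT10 mRNA and higher in 1 (7.69%), with a median log2 fold change of -0.43. Their footprints were lower in 6 of 7, with a median of -2.24. Over all genes tested, mRNA was 29.6% lower and 33.7% higher, and footprints 1.28% lower and 1.81% higher. In sgMyc 11 of 13 mitochondrially encoded mRNAs were lower, with a median of -0.66, beside 8.86% of all genes tested. Without replicate 3 all 13 were lower, beside 26.9% of all genes. sgMyc replicate 3 lay with the other sgMyc libraries in these genes, at a median log2 ratio to WT of -0.81 against -0.64 and -0.72, unlike in the mitoribosomal genes. The rRNA mt-Rnr1 was 3416 and 3599 FPKM in WT and 3462 and 3194 in sgNAT10 mRNA, with no call, and mt-Rnr2 was higher there, at 1598 and 1716 against 2006 and 2175. Whether the libraries were depleted of rRNA or selected for polyadenylated RNA is not given in the sources used here.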

How the data were processed

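FPKM values for sgNAT10 mRNA and Ribo-seq and counts with FPKM for sgMyc mRNA were deposited by the authors, per the file headers. Those tables also hold log2 ratios and p-values as deposited; which test gave them is not stated. Per the file headers, the acRIP table has a fold enrichment (a ratio), a log2 difference and scores that are log10 of a p-value or FDR, for each peak; 66 peaks have no readable FDR. Per the submitters' processing notes, FastQC, Trim Galore, Bowtie2 and featureCounts were used with mm10; versions and roles are not given in the sources used here.

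Genes whose mean over a set's libraries reached 1 FPKM were tested on log2(FPKM + 1) with limma 3.58.1 (lmFit, eBayes with a trend; R 4.3.3), which understates fold changes of low genes. Counts were tested with edgeR 4.0.16 (filterByExpr, TMM, glmQLFit, glmQLFTest), with DESeq2 1.42.0 as an alternative. Adjusted p is Benjamini-Hochberg over all genes tested, with a threshold of 0.05. FPKM of the sgNAT10 set gave whole reads (tolerance 1e-09) for 99.94% of mRNA and 99.99% of Ribo-seq genes, which gave depth and an edgeR alternative. The fits were run on simulated reads with known changes, and the outcome is not given here. For the genotype by assay term both simulated assays had the low spread of mRNA libraries. That run therefore does not cover the spread of footprint libraries.

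Members and lists were chosen with earlier results of these data known. Named genes are the 5 with the largest changes per subunit and direction among those past the threshold with separate groups and at least 5 FPKM, otherwise the 3 with the lowest p, plus genes of the listed roles, genes with a peak, genes called in opposite directions and the highest in WT. Genes named outside this rule were chosen after their values were seen. All 78 genes matched a RefSeq position. Positions and promoters are from RefSeq GRCm38.p6. Same-numbered WT and edited libraries of a comparison did not deviate together, so no block was used.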

Additional observations from a re-analysis of the deposited data

Results flagged for a closer look

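In 2 of 77 genes the effect of the sgMyc edit on mRNA differed from that of the sgNAT10 edit by a test of the difference itself (genotype by set term, limma, Benjamini-Hochberg over 10265 genes). Among all genes tested 21% differed, 6.78% higher and 14.2% lower, a larger share than in the mitoribosomal genes. Mrpl1 differed by 0.52 (SE 0.0894, limma adjusted p = 0.00488) and Mrps31 by 0.67 (SE 0.13, limma adjusted p = 0.00843), both as sgMyc minus sgNAT10 on the log2(FPKM + 1) scale. Mrpl1 fell from a mean of 6.79 to 3.59 FPKM in sgNAT10, and was 4.501 in WT and 3.66 in sgMyc. Mrps31 fell from 7.12 to 3.24 FPKM in sgNAT10, and was 7.04 in WT and 5.68 in sgMyc. Both differences passed in each fit that left out 1 library, and Mrpl1 was not tested with a minimum mean of 5 FPKM.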

How the results depend on the processing

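For sgNAT10 mRNA, 30 to 35 genes were lower and 8 to 12 higher over the settings that kept all libraries. The background moved too. Over all genes tested 3960 were higher and 3471 lower in the main fit. With median scaling these were 3405 and 4104, and with edgeR on recovered reads 4615 and 4653 (33.3% and 33.6%). The mitoribosomal genes had 34 lower and 8 higher with median scaling, and 33 lower and 9 higher with edgeR. For Ribo-seq, 2 genes were lower with a minimum of 5 FPKM and with edgeR on recovered reads, 0 without a variance trend, and 0 in each fit that left out 1 library, which called 0 to 9 of all genes and so say little of these; 1 was lower with the other settings. For translational efficiency, leaving out 1 library gave 0 to 6 higher and 0 to 3 lower. For sgMyc, DESeq2 called 1 higher, and leaving out 1 library gave 0 to 39 lower and 0 to 3 higher, the largest numbers without sgMyc replicate 3. Calls over all genes moved in the same fits, from 493 to 4710 lower and from 187 to 4658 higher. For the difference between the edits, 5 genes were higher after quantile normalization and 1 with a minimum of 5 FPKM, and leaving out 1 library gave 2 to 9 higher and 0 to 26 lower. There Mrpl12, at 0.08 with all libraries, ran from -0.30 (reversed, without sgMyc replicate 3) to 0.29 when 1 library was left out, and the cause was not tested. With peaks at an FDR under 0.01, 4 of the 7 genes kept a peak, beside 781 of all 1066 genes with a peak. For single genes, 1792 of 1914 alternative values kept direction and side of the threshold, 27 lost a call, 44 gained one and 50 without a test moved.

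Within each comparison the replicate numbers did not pair WT with edited libraries: same-numbered ones correlated at 0.0079 (mRNA), 0.0245 (Ribo-seq) and -0.018 to 0.010 (sgMyc). Pairing of mRNA with Ribo-seq libraries of the same number was not tested. With a replicate block, 30 genes were lower and 12 higher in sgNAT10 mRNA, 1 lower in Ribo-seq, 0 in translational efficiency and 1 lower in sgMyc.

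Ribo-seq had 1542261 to 3192728 footprints per library, and the part of depth in its few calls was not tested. A log2 fold change understates the change of low genes at a pseudocount of 1 FPKM. Leaving out 1 of 2 libraries assumes that the lone library varies like the other group.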

Other observations

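Rbfa, a maturation factor of the small subunit, had at most 4 reads in each edited library of either set. Its protein-coding neighbours in RefSeq order, Adnp2 and Txnl4a, were looked at after its values were seen. Adnp2 was 8.94 and 7.91 FPKM in WT and 9.55 and 9.58 in sgNAT10 mRNA, and 8.74, 8.82 and 8.72 in WT and 8.98, 9.43 and 9.23 in sgMyc. Txnl4a was 10.4 and 11.3 FPKM in WT and 10.3 and 11.1 in sgNAT10 mRNA, and 5.08, 4.88 and 4.53 in WT and 5.19, 5.59 and 7.70 in sgMyc. Both neighbours were thus present in every mRNA library. Why Rbfa was nearly absent from both edited lines was not tested.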
